A study of Mus musculus with 9 samples.

Results

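The genes described here are Trp53, which encodes the transcription factor p53, and 9 genes that p53 is known to switch on directly: Cdkn1a, Mdm2, Bax, Bbc3, Ccng1, Phlda3, Eda2r, Zmat3 and Sesn2. They were chosen by name, with earlier results of these data known, and all 10 were found among the 16873 genes of the files. RNA was sequenced from mouse hearts with 3 libraries in each group: saline-treated WT mice, WT mice that received doxorubicin (DOX), and Sting-/- mice that received doxorubicin. Doxorubicin is an anthracycline cancer drug that damages DNA through topoisomerase II and can injure the heart, and the series used it at a low dose as a model of chronic cardiotoxicity. Sting-/- mice lack STING, which relays the signal of cGAS, a sensor of DNA in the cytosol, to interferon and inflammatory genes. The dose in figures, the time after treatment and the age of the mice are not given in the sources used here. Untreated Sting-/- hearts were not analysed here, so the genotype and its response to the drug cannot be told apart, and both comparisons of WT DOX hearts share those 3 libraries. Whether each library stands for its own animal is not stated in the labels, and p-values therefore cover only the spread among these samples, which may be technical.

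p53 is held at a low level because MDM2, the product of one of its own targets, marks it for degradation. DNA damage releases p53 from MDM2, mainly by modifying the protein, and the stabilised protein binds DNA as a tetramer at response elements made of paired decamers. Its targets arrest the cell cycle, permit repair, start the mitochondrial route of apoptosis, restrain growth signalling and return the signal to rest. In the heart, p53 is known as a mediator of anthracycline injury. RNA levels, which are what these data hold, do not show the level or activity of the p53 protein.

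RefSeq windows of the GRCm38.p6 build, from 250 bases before to 50 bases after each annotated start, were available for 9 of the 10 genes, and are shown because the decamer is the letter pattern through which p53 is known to bind its targets. The windows of Cdkn1a, Ccng1, Mdm2, Trp53 and Bax held the p53 decamer consensus (3 purines, C, A or T, A or T, G, 3 pyrimidines, which reads as the same pattern on both strands). Each stretch runs 5′ to 3′ on the strand of the gene, ends before the start site, and has the matching decamers in capitals.
Cdkn1a, chr17:29090876-29090967, plus strand: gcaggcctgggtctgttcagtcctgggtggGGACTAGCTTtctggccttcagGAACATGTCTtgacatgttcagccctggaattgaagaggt
Ccng1, chr11:40755432-40755501, minus strand: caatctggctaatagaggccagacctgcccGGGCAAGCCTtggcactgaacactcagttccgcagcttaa
Mdm2, chr10:117710905-117710974, minus strand: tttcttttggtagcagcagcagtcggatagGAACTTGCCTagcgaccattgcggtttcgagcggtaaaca
Trp53, chr11:69580254-69580323, plus strand: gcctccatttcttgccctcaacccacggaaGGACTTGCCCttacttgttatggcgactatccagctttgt
Bax, chr7:45467060-45467129, minus strand: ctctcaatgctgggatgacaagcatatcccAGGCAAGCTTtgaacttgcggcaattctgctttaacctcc

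The consensus was present in 5 of the 12 windows of these genes (some genes have more than 1 annotated start) and in 8.36% of all 32851 windows of the same length. Cdkn1a was the only gene of the set with a pair of decamers separated by at most 13 bases, an arrangement found in 0.0731% of all windows. In the Cdkn1a and Ccng1 windows a matching decamer also lay directly beside another stretch that met 9 of the 10 positions (in Cdkn1a after it, in Ccng1 before it), an arrangement found in 0.0883% of all windows. A match describes letters in the window and is not a measured binding site. The 5 genes whose windows held the consensus did not move in the same direction in these hearts, as the values below show: 3 of them rose with doxorubicin, Ccng1 fell, and Mdm2 did not pass the test.

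Values are FPKM (fragments per kilobase of transcript, relative to all fragments mapped in that library), so levels of different genes can be set side by side within a library. Differences are on the log2(FPKM + 1) scale, which understates changes of genes near 1 FPKM, and were tested with limma across the 12485 genes whose mean over the 9 libraries reached 1 FPKM. A gene is said to have risen or fallen when its limma p, adjusted by the Benjamini-Hochberg method over all those genes, was under 0.05. A step is the comparison of a group with the group before it in the order saline, WT DOX, Sting-/- DOX. The second step thus sets the genotypes side by side under the drug and does not follow the same hearts. All 10 genes had a mean of at least 1 FPKM already in saline hearts, so none passed that filter only through the group where it is high. Sting1 was at 5.10, 5.43 and 5.93 FPKM in saline hearts, at 17.5, 18.0 and 17.8 in WT DOX hearts and at 0.06, 0 and 0 in the hearts labelled Sting-/-. The spacing of low values gave a rough depth, in units of 1e+06 fragments, of 11.8 to 12.1 for saline libraries, 13.8 to 14.4 for WT DOX libraries and 8.4 to 8.8 for Sting-/- DOX libraries. The median gene was higher by 0.13 in WT DOX than in saline, by 0.25 in Sting-/- DOX than in WT DOX and by 0.49 in Sting-/- DOX than in saline, so each difference is also given relative to that median. Higher calls made up 67.8% of all calls in WT DOX against saline as deposited, and 41.3% or 39.2% after median-ratio scaling or quantile normalization. These 2 scalings moved the median gene of that comparison past 0, to -0.08 or -0.10. They brought it to near 0 in Sting-/- DOX against WT DOX (-0.01 or 0.02) and against saline (0.03 under both). The share was 64.6% in Sting-/- DOX against WT DOX, and 49.2% or 51.4% after those scalings. For Sting-/- DOX against saline it was 70.9%, and 51.0% or 51.3% after them. List counts under these scalings have their own background among the 12485 genes. In WT DOX against saline it was 3582 higher and 5087 lower under median-ratio scaling, and 3461 and 5363 under quantile normalization. In Sting-/- DOX against WT DOX it was 4957 and 5114, or 5235 and 4953.

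The makeup of the RNA also differed between the groups. The summed level of 8 cardiomyocyte markers ran from 54180 to 54323 FPKM in saline hearts, from 35980 to 38504 in WT DOX hearts and from 8229 to 8659 in Sting-/- DOX hearts, and no marker was at 0. From saline to WT DOX to Sting-/- DOX, 6 fibroblast markers summed to 483 to 491, 732 to 748 and 4529 to 4789 FPKM. Over the same groups, 6 endothelial markers summed to 227 to 228, 210.0 to 214 and 789 to 846 FPKM, and 6 macrophage markers to 319 to 365, 1001 to 1140 and 1965 to 2029. Neutrophil markers, 4 in number, summed to 5.99 to 6.23, 202 to 270 and 77.4 to 89.9 FPKM. Smooth muscle markers, also 4, summed to 107 to 144, 132 to 149 and 781 to 835 FPKM, and 4 mesothelial markers to 3.65 to 5.47, 4.86 to 6.71 and 76.5 to 78.7. These sums hide unlike members. Col1a1 and Col1a2, at means of 1988 and 1463 FPKM, made up most of the Sting-/- DOX fibroblast sum. Dcn did not pass between WT DOX and saline (-0.02), nor Pdgfra between the DOX groups (-0.08), while the other 5 fibroblast markers were higher each time. From saline to WT DOX, Myh11 fell (-0.56) against 2 smooth muscle markers higher. Msln (-0.59) and Upk3b (-0.79) fell against 1 mesothelial marker higher, Krt19 (1.66). The part of these cell types in the results on the p53 genes was not tested, and in whole-heart RNA fewer cells of a type and less RNA per cell cannot be told apart.

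**Figure D1:**
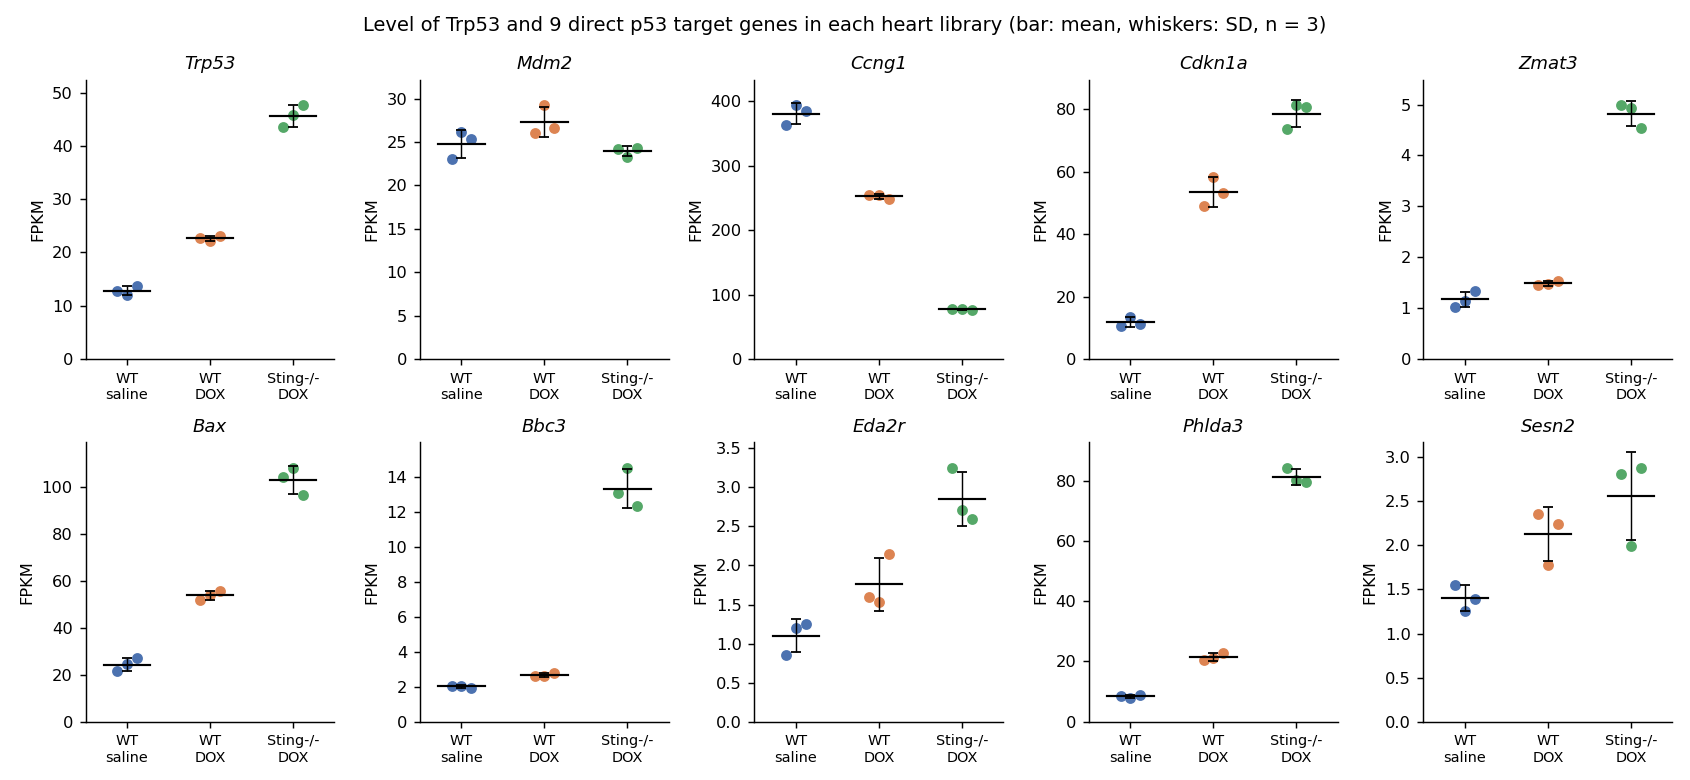
Level of each gene in FPKM, on linear axes from 0, with 1 point per library, a bar at the group mean and whiskers of 1 SD (n = 3), for WT saline, WT DOX and Sting-/- DOX hearts. The 3 groups separate for 8 of the 10 genes, with Ccng1 descending from about 381 to 76.9 FPKM, while the saline range of Mdm2 overlaps both others and the DOX ranges of Sesn2 overlap.

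In hearts of WT mice, doxorubicin was accompanied by higher RNA of 8 of the 10 genes and lower RNA of 1, Ccng1, with Mdm2 not past the threshold. Among all tested genes 45.3% were called higher and 21.5% lower in this comparison, so most genes moved. The median difference was 0.38 over the 10 genes and 0.13 over all tested genes. Cdkn1a, Phlda3, Bax and Trp53 stayed higher and Ccng1 lower under both other scalings, whereas Bbc3, Eda2r, Zmat3 and Sesn2 no longer passed under either, and Bbc3 and Zmat3 turned to slightly negative values under quantile normalization. Sting-/- DOX hearts were then compared with WT DOX hearts: 7 of the 10 genes were higher, 2 were lower (Ccng1 and Mdm2) and Sesn2 did not pass the test. The share of all tested genes called was 54.1% higher and 29.7% lower, and the median difference was 0.73 over the 10 genes and 0.25 over all genes. Against WT saline, Sting-/- DOX hearts had 8 of the genes higher and Ccng1 lower, with 63.0% of all tested genes higher and 25.9% lower, and medians of 1.59 and 0.49. Under median-ratio scaling 7 were higher and 2 lower in that comparison, and under quantile normalization 6 and 2, with Mdm2 joining the lower genes and Sesn2, and under quantile normalization Eda2r, no longer passing.

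**Figure D2:**
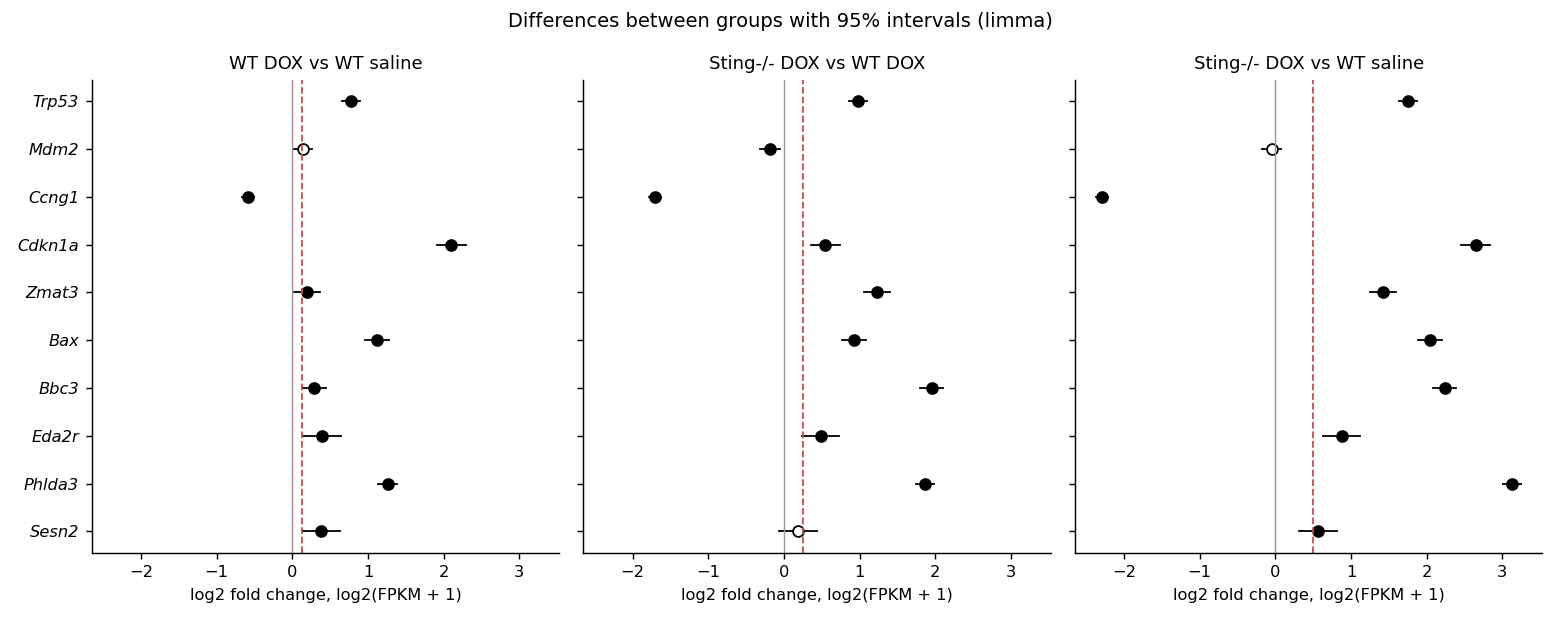
Difference of each gene on the log2(FPKM + 1) scale with its 95% confidence interval in each of the 3 comparisons; filled points had an adjusted limma p under 0.05, the red dashed line is the median of all tested genes and the grey line is 0. Ccng1 lies left of 0 in all 3 panels, and Mdm2 lies nearest to 0 in the comparisons of WT DOX and of Sting-/- DOX with saline.

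Trp53, the gene of p53 itself, rose in both steps. Its level was 12.81, 11.97 and 13.74 FPKM in the saline hearts, 22.7, 22.2 and 23.1 in the WT DOX hearts and 43.5, 45.9 and 47.7 in the Sting-/- DOX hearts. The 3 groups did not overlap, and every Sting-/- DOX heart stood above every WT DOX heart. The difference was 0.78 (SE 0.055, limma adjusted p = 1.44e-07) between WT DOX and saline, 0.65 above the median gene. Between Sting-/- DOX and WT DOX it was 0.98 (SE 0.055, adjusted p = 5.87e-09), 0.73 above the median gene. Under the other scalings these differences were 0.54 or 0.55 in WT DOX against saline and 0.69 or 0.89 in Sting-/- DOX against WT DOX, all past the threshold. A processed pseudogene of Trp53 is annotated elsewhere in the mouse genome, and how the authors' counting divided reads between such copies is not given in the sources used here. Its relatives Trp63 and Trp73 were below the filter.

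Mdm2 and Ccng1 are the members known for returning the p53 signal to rest. MDM2 is the ubiquitin ligase that marks p53 for degradation, and its gene is a textbook p53 target. Mdm2 was at 23.0, 26.1 and 25.3 FPKM in saline, 26.1, 29.3 and 26.7 in WT DOX and 24.2, 23.3 and 24.4 in Sting-/- DOX hearts. The saline range overlapped both others, while all 3 Sting-/- DOX values lay just below the 3 WT DOX values. WT DOX differed from saline by 0.13 (95% interval 0.0069 to 0.26, limma adjusted p = 0.0596), which was 0.01 from the median gene and was -0.11 or -0.05 under the other scalings. The same difference passed without the saline library of replicate 2 (0.17, adjusted p = 0.0345) or without the WT DOX library of replicate 1 (0.17, adjusted p = 0.0409). Sting-/- DOX was lower than WT DOX by a difference of -0.18 (95% interval -0.31 to -0.06, adjusted p = 0.0113), or -0.43 from the median gene, and the call was lost without WT DOX replicate 2 (-0.13, adjusted p = 0.0525). Against saline, Mdm2 in Sting-/- DOX hearts differed by -0.05 (95% interval -0.18 to 0.08, adjusted p = 0.434), and by -0.57 or -0.40 under the other scalings, both past the threshold.

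In the deposited values Mdm2 stayed between 23.0 and 29.3 FPKM in all 9 hearts while Trp53 rose, and their ratio within each library, which a single scaling factor per library leaves as it is, was lower in each group in turn. Mdm2 over Trp53 was 1.80, 2.18 and 1.84 in saline, 1.15, 1.32 and 1.15 in WT DOX and 0.555, 0.507 and 0.511 in Sting-/- DOX hearts. The ratios were picked after the values had been seen and carry no test, and an exact permutation test of 3 against 3 could not go below p = 0.1. Mdm4, the relative of Mdm2 that binds p53 and blocks its activity, did not pass between WT DOX and saline (-0.07, adjusted p = 0.309), and was lower under both other scalings (-0.30 and -0.29). It rose in Sting-/- DOX hearts against WT DOX (1.43, SE 0.062, adjusted p = 5.07e-10), from 8.0, 9.58 and 8.32 to 25.1, 25.2 and 24.6 FPKM. Mdm2 over Mdm4 accordingly lay between 2.51 and 2.96 in saline, between 3.05 and 3.26 in WT DOX and between 0.923 and 0.990 in Sting-/- DOX hearts.

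Ccng1 encodes cyclin G1, which recruits the phosphatase PP2A to MDM2. It was the most abundant of the 10 in both WT groups and the only one lower in all 3 comparisons. Its level was 363, 394 and 385 FPKM in saline, 255, 254 and 249 in WT DOX and 77.3, 77.3 and 76.2 in Sting-/- DOX hearts. No groups overlapped, and the spread within a group was small (SD 16.2, 3.56 and 0.625 FPKM, n = 3 each). The difference was -0.59 (SE 0.037, limma adjusted p = 4.40e-08) between WT DOX and saline, and -1.70 (SE 0.037, adjusted p = 1.06e-12) between Sting-/- DOX and WT DOX. Relative to the median gene these were -0.72 and -1.95, and every scaling kept both calls.

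The cardiomyocyte markers fell over the same groups, by a list median of -0.70 in WT DOX against saline (7 of 8 lower) and -2.24 in Sting-/- DOX against WT DOX (8 of 8 lower). All tested genes had medians of 0.13 and 0.25 in these comparisons, with 21.5% and 29.7% called lower. Quantile normalization left 6 of the 8 markers lower in WT DOX than in saline and turned Actc1 higher (0.13). Per 1000 FPKM of the 8 markers, Ccng1 stood at 6.69, 7.26 and 7.09 FPKM in saline, 6.63, 7.07 and 6.70 in WT DOX and 9.40, 9.15 and 8.80 in Sting-/- DOX hearts. On that footing saline and WT DOX overlapped and the Sting-/- DOX hearts were the highest, whereas they were the lowest in plain levels. The ratio depends on the markers summed, as these fell by unlike amounts. Between WT DOX and saline they ran from -0.10 for Tnnt2 (not past the threshold) to -1.13 for Ckm. Between Sting-/- DOX and WT DOX they ran from -1.46 for Tnnt2, a smaller fall than that of Ccng1, to -3.10 for Pln. The part of cell makeup in the change of Ccng1 was not tested. Its relative Ccng2, cyclin G2, was lower in WT DOX than in saline (-0.26, adjusted p = 0.00226) and higher in Sting-/- DOX than in WT DOX (1.19, adjusted p = 2.28e-09), both under all 3 scalings.

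**Figure D3:**
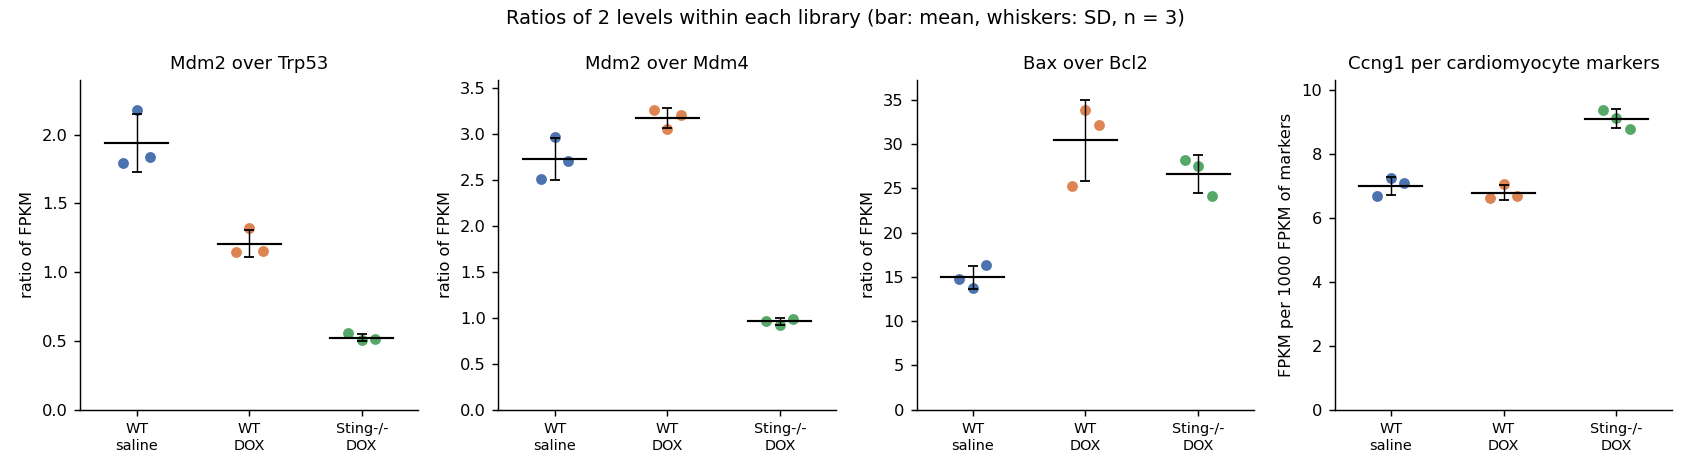
Ratios formed within each library, 1 point per library, with a bar at the group mean and whiskers of 1 SD (n = 3), for Mdm2 over Trp53, Mdm2 over Mdm4, Bax over Bcl2, and Ccng1 per 1000 FPKM of the 8 cardiomyocyte markers. Mdm2 over Trp53 descends from a mean of 1.94 to 1.21 to 0.524, and Ccng1 per marker level is highest in the Sting-/- DOX hearts.

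Cdkn1a encodes p21, the inhibitor of cyclin-dependent kinases through which p53 arrests the cell cycle. It had the largest rise of the 10 genes with doxorubicin in WT hearts, ranking 229 of the 12485 tested genes. Its level was 10.6, 13.6 and 11.1 FPKM in saline, 49.1, 58.5 and 53.2 in WT DOX and 73.7, 81.4 and 80.9 in Sting-/- DOX hearts. Saline and WT DOX hearts lay far apart, and the Sting-/- DOX hearts stood higher again without overlap. The step from saline to WT DOX was 2.10 (SE 0.087, limma adjusted p = 1.09e-09), or 1.97 above the median gene. The step from WT DOX to Sting-/- DOX was smaller, 0.55 (SE 0.087, adjusted p = 8.61e-05), or 0.30 above the median gene, and was 0.26 or 0.52 under the other scalings. A gene on the opposite strand is annotated over Cdkn1a, and whether the authors' counting used strand is not given in the sources used here.

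Other brakes on the cell cycle went in different directions with doxorubicin. Cdkn1c, which encodes p57, fell with doxorubicin in WT hearts (-1.09, limma adjusted p = 6.81e-08) and rose in Sting-/- DOX against WT DOX hearts (3.53, adjusted p = 6.18e-13). Its values were 11.32, 10.93 and 12.03 FPKM, then 4.56, 4.48 and 5.58, then 64.2, 67.0 and 69.2. Cdkn1b, which encodes p27, moved the same way with smaller differences (-0.20 and 0.91). Cdkn2b, which encodes p15 and blocks CDK4 and CDK6, rose in both steps (0.59 and 2.42). Of the 15 genes in the list of other CDK inhibitors, G1 cyclins and kinases, 11 rose and 2 fell from saline to WT DOX, and 11 were higher and 3 lower in Sting-/- DOX than in WT DOX. Under the other scalings the first of those counts became 7 and 4 or 5 and 4, and the second became 8 and 4 under both. Beside the deposited counts stand the 45.3% higher and 21.5% lower of all tested genes in the first step. In the second these shares were 54.1% and 29.7%. The list medians were 0.27 and 0.57 beside 0.13 and 0.25 for all tested genes.

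Genes of the G2 and M phases, which p21 is known to repress through the DREAM complex, were higher in the same hearts in which Cdkn1a was higher. In WT DOX against saline, 12 of 12 rose, where 45.3% of all tested genes were higher. The list median was 1.49 beside 0.13 for all tested genes, and all 12 stayed higher under both other scalings. Top2a, the topoisomerase that doxorubicin poisons in dividing cells, went from 1.25, 1.91 and 1.57 FPKM to 8.07, 7.09 and 7.53 (1.74, adjusted p = 7.60e-09). Birc5, which encodes survivin and acts in cell division, went from 2.64, 1.78 and 1.91 FPKM to 10.4, 8.89 and 8.67 (1.74, adjusted p = 1.86e-08). From WT DOX to Sting-/- DOX, 11 of 12 rose, where 54.1% of all tested genes were higher, with a list median of 0.50 beside 0.25. Under median-ratio scaling and quantile normalization 7 of 12 rose, beside 4957 and 5235 of all 12485 tested genes. The G2 and M genes are repressed targets by the name of the list, and here they moved upward together with Cdkn1a. Called higher in WT DOX than in saline were 6 of 6 macrophage, 4 of 4 neutrophil, 5 of 6 fibroblast, 2 of 4 smooth muscle and 1 of 4 mesothelial markers. No endothelial or cardiomyocyte marker was called higher. Which cells carried Cdkn1a or the G2 and M genes was not tested.

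Bax, Bbc3 and Eda2r are the members that act in cell death. BAX is the BCL2 family protein that opens the outer mitochondrial membrane. Its RNA was at 21.4, 24.5 and 27.0 FPKM in saline, 51.7, 53.9 and 55.7 in WT DOX and 104, 108 and 96.3 in Sting-/- DOX hearts. Groups did not overlap, and Bax was the most abundant of the 10 genes in the Sting-/- DOX hearts. The differences were 1.12 (SE 0.073, limma adjusted p = 6.63e-08) between WT DOX and saline and 0.92 (SE 0.073, adjusted p = 1.49e-07) between Sting-/- DOX and WT DOX, or 0.99 and 0.67 above the median gene. Another protein-coding gene is annotated over Bax on the same strand, so part of its value could be shared.

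Bbc3 encodes PUMA, a BH3-only protein that frees BAX from its BCL2-type inhibitors. Bbc3 was at 2.06, 2.07 and 1.94 FPKM in saline, 2.64, 2.61 and 2.81 in WT DOX and 13.1, 14.5 and 12.3 in Sting-/- DOX hearts. The WT groups lay apart but close, and the Sting-/- DOX hearts stood well above both. The step from saline to WT DOX was 0.29 (SE 0.070, adjusted p = 0.00341), only 0.16 above the median gene, and was 0.11 (adjusted p = 0.172) under median-ratio scaling and -0.01 (adjusted p = 0.862) under quantile normalization. The step from WT DOX to Sting-/- DOX was 1.95 (SE 0.070, adjusted p = 9.32e-11), the largest of the 10 genes as deposited, and was 1.68 or 1.72 under the other scalings, the second of which put Phlda3 (1.81) ahead of it.

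Eda2r encodes a receptor of the tumour necrosis factor receptor family that binds the A2 form of ectodysplasin. It was at 0.86, 1.2 and 1.25 FPKM in saline, 1.60, 1.53 and 2.15 in WT DOX and 3.25, 2.71 and 2.60 in Sting-/- DOX hearts. The groups were apart, though all values were low. It differed by 0.39 (SE 0.114, adjusted p = 0.00948) and then by 0.48 (SE 0.114, adjusted p = 0.00174), 0.26 and 0.24 above the median gene. The first of these did not pass under either other scaling, and the second did not pass under quantile normalization (0.15, adjusted p = 0.229). Against saline, Sting-/- DOX was higher by 0.87 (adjusted p = 1.18e-05), by 0.53 under median-ratio scaling and by 0.25 (adjusted p = 0.0615) under quantile normalization. Eda, the gene of its ligand, was at 0.70, 0.50 and 0.65 FPKM in saline, 0.99, 0.94 and 0.98 in WT DOX and 1.46, 1.47 and 1.37 in Sting-/- DOX hearts. Its 2 steps of 0.29 and 0.30 passed as deposited (adjusted p = 0.0117 and 0.00616) and did not pass under the other scalings, and the first turned negative under quantile normalization.

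Among the other BCL2 family genes, 6 of 11 tested rose and none fell from saline to WT DOX (6 and 1 or 6 and 2 under the other scalings). Of all tested genes 45.3% were higher and 21.5% lower, and the list median was 0.36 beside 0.13 for all. Bak1, the closest relative of Bax in function, rose from 24.4, 24.5 and 25.9 to 57.7, 55.1 and 58.1 FPKM (1.16, adjusted p = 7.46e-10), and did not pass between the DOX groups (0.004, adjusted p = 0.938), where median-ratio scaling called it lower (-0.29). Bid, which activates BAX, rose with doxorubicin in WT hearts (1.15, adjusted p = 1.87e-06). The step to Sting-/- DOX had 9 of 11 higher and none lower (7 and 3 or 8 and 1 under the other scalings), led by Bok at 1.77 and Bmf at 1.24. Of all tested genes 54.1% were higher and 29.7% lower in that step, and the medians were 0.56 for the list and 0.25 for all. Bcl2, which inhibits BAX, did not pass between WT DOX and saline (0.09, adjusted p = 0.395; -0.07 and -0.20 under the other scalings) and rose in Sting-/- DOX against WT DOX (0.81, adjusted p = 2.35e-06). Bcl2 itself was low, at means of 1.63, 1.79 and 3.87 FPKM in the 3 groups. Bcl2l1, Mcl1 and Bcl2l2, also inhibitors, had saline means of 15.1, 74.0 and 23.0 FPKM. Bcl2l1 (0.68, adjusted p = 4.26e-08) and Mcl1 (0.36, adjusted p = 2.08e-05) rose with doxorubicin in WT hearts, and Bcl2l2 did not pass (-0.02). In Sting-/- DOX against WT DOX, Bcl2l2 rose (1.19, adjusted p = 5.35e-07). Bax over Bcl2 was 14.8, 13.8 and 16.4 in saline, 25.2, 33.9 and 32.2 in WT DOX and 28.2, 27.5 and 24.2 in Sting-/- DOX hearts. That ratio was higher in every DOX heart than in any saline heart, and it overlapped between the DOX groups, unlike Bax itself.

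Phlda3 and Sesn2 restrain growth signalling. PHLDA3 competes with AKT for membrane lipids. Phlda3 was at 8.39, 7.92 and 8.96 FPKM in saline, 20.5, 21.2 and 22.9 in WT DOX and 84.2, 80.0 and 79.4 in Sting-/- DOX hearts. The 3 groups lay far apart, and the highest value of each lay well below the lowest of the next. The differences were 1.26 (SE 0.056, limma adjusted p = 2.13e-09) and 1.87 (SE 0.056, adjusted p = 1.84e-11), or 1.13 and 1.62 above the median gene. In Sting-/- DOX hearts Phlda3 was higher than in saline hearts by 3.13 (SE 0.056, adjusted p = 1.21e-13), ranking 186 of the 12485 tested genes, and no scaling changed these calls. Its relative Phlda1 rose with doxorubicin in WT hearts (0.66, adjusted p = 2.14e-06) and fell in Sting-/- DOX against WT DOX hearts (-1.31, adjusted p = 1.41e-09), both under all 3 scalings.

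Sesn2 encodes sestrin 2, a leucine sensor that holds back mTORC1. It was at 1.55, 1.26 and 1.39 FPKM in saline, 2.36, 1.78 and 2.24 in WT DOX and 2.81, 1.99 and 2.88 in Sting-/- DOX hearts. The saline values were the lowest, and the DOX groups overlapped because replicate 2 of Sting-/- DOX was low. Another gene, of the antisense class, is annotated over Sesn2 on the same strand, so part of the low value of Sesn2 could be shared. WT DOX was higher than saline by 0.38 (SE 0.115, adjusted p = 0.0119), 0.25 above the median gene, which did not pass under the other scalings (0.23 and 0.09). Sting-/- DOX differed from WT DOX by 0.18 (95% interval -0.07 to 0.43, adjusted p = 0.158), by -0.02 or -0.15 under the other scalings, and by 0.30 (adjusted p = 0.0188) without the library of replicate 2. Against saline, Sting-/- DOX was higher by 0.56 (adjusted p = 0.00057), which was 0.20 (adjusted p = 0.111) under median-ratio scaling and -0.06 (adjusted p = 0.612) under quantile normalization. Sesn1, its relative and also a p53 target, fell in both steps (-0.61 and -0.49, adjusted p = 6.14e-07 and 2.08e-06), from 55.2, 52.2 and 54.1 FPKM in saline to 23.9, 23.7 and 26.3 in Sting-/- DOX hearts, and fell under every scaling. Sesn3 did not pass in either step (-0.09 and -0.003), though quantile normalization called it lower in both (-0.39 and -0.32).

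Zmat3 encodes a zinc finger RNA-binding protein, known to regulate splicing downstream of p53. It was at 1.03, 1.15 and 1.33 FPKM in saline, 1.45, 1.47 and 1.54 in WT DOX and 4.99, 4.93 and 4.54 in Sting-/- DOX hearts. The WT groups were apart by a narrow gap and the Sting-/- DOX hearts stood far above them. The step from saline to WT DOX was 0.20 (SE 0.079, limma adjusted p = 0.0422), only 0.07 above the median gene, and it turned to -0.10 (adjusted p = 0.263) under quantile normalization. That call was also lost in the fit of the 2 groups alone (adjusted p = 0.0611) and without any one of 6 single libraries, namely saline replicate 1 or 2, any WT DOX replicate, or Sting-/- DOX replicate 2. The step from WT DOX to Sting-/- DOX was 1.23 (SE 0.079, adjusted p = 2.04e-08), or 0.98 above the median gene, and was 0.99 or 0.93 under the other scalings.

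**Figure D4:**
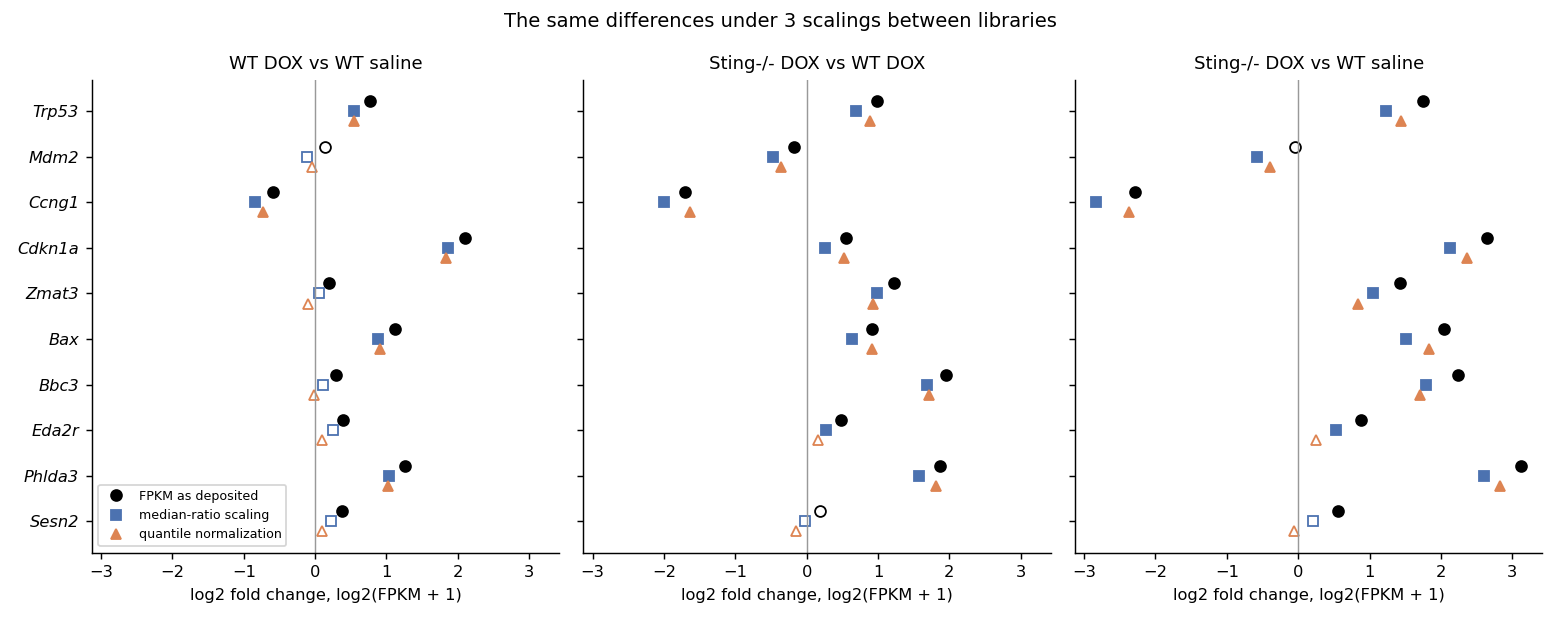
Difference of each gene on the log2 scale in the 3 comparisons under the deposited values (circles), median-ratio scaling (squares) and quantile normalization (triangles); filled symbols had an adjusted limma p under 0.05. In WT DOX against saline, Trp53, Cdkn1a, Bax, Phlda3 and Ccng1 stay filled under all 3 scalings, while Bbc3, Eda2r, Zmat3 and Sesn2 are filled only for the deposited values.

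The order of the differences was not the same in the 2 steps, which share the WT DOX libraries, so the difference between the steps was not tested. In the first, from saline to WT DOX, Cdkn1a (2.10), Phlda3 (1.26) and Bax (1.12) led and Bbc3 (0.29) and Zmat3 (0.20) were near the median gene. In the second, from WT DOX to Sting-/- DOX, Bbc3 (1.95), Phlda3 (1.87) and Zmat3 (1.23) led and Cdkn1a (0.55) was lower in the order. The order of levels changed with it. In saline hearts it ran from Ccng1 through Mdm2 and Bax, whose ranges overlapped, to Trp53 and Cdkn1a, which also overlapped, then Phlda3 and Bbc3, with Sesn2, Zmat3 and Eda2r lowest and not separable. WT DOX hearts had Bax and Cdkn1a, which overlapped, directly below Ccng1, then Mdm2, then Trp53 and Phlda3, which overlapped. In Sting-/- DOX hearts Bax stood above Phlda3, Cdkn1a and Ccng1, whose neighbouring ranges overlapped, and Mdm2, the gene with the second highest mean in saline, was below Trp53.

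The wider pathway was read from lists chosen with earlier results of these data known. Their deposited counts stand beside the shares of all tested genes, 45.3% higher and 21.5% lower in WT DOX against saline and 54.1% and 29.7% in Sting-/- DOX against WT DOX. A count near those shares is no result about the list. Under median-ratio scaling 3582 of all 12485 tested genes were higher and 5087 lower in WT DOX against saline, and 3461 and 5363 under quantile normalization. In Sting-/- DOX against WT DOX the numbers were 4957 and 5114, or 5235 and 4953. Among 14 upstream regulators of p53, 13 were tested. In WT DOX against saline 3 were higher and 1 lower (1 and 8 under either other scaling). Chek1, the checkpoint kinase of stalled replication, rose by 0.59 (limma adjusted p = 0.00013), also under both other scalings, and Cop1, another ubiquitin ligase of p53, fell by 0.27 (adjusted p = 0.00271). Sting-/- DOX hearts had 8 of them higher and 1 lower than WT DOX hearts (6 and 4 or 7 and 5 under the other scalings), a higher share near that of all tested genes. Chek2, the checkpoint kinase that acts below ATM, rose from 2.49, 2.60 and 3.84 to 18.0, 15.0 and 15.7 FPKM (2.13, adjusted p = 9.22e-09). Hipk2, a kinase that modifies p53 towards the death program, fell from 8.52, 9.68 and 8.61 to 2.43, 2.28 and 2.18 FPKM (-1.59, adjusted p = 3.08e-10).

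Of 12 other p53 targets tested in cell cycle arrest and DNA repair, 5 rose and 2 fell from saline to WT DOX, or 5 and 6 under either other scaling, and the deposited counts are near the shares of all tested genes. The list median was 0.06, beside 0.13 for all genes. Sfn, which encodes 14-3-3 sigma and holds cells in G2, rose by 1.62 (adjusted p = 5.36e-08), and Ckap2, a spindle protein, rose by 1.18 (adjusted p = 9.56e-07). Gadd45a, a stress sensor tied to DNA repair, fell by 0.44 (adjusted p = 0.000731), and Rrm2b, the p53-inducible ribonucleotide reductase subunit, fell by 0.43 (adjusted p = 3.17e-05). Both were also lower in Sting-/- DOX than in WT DOX hearts (-0.43 and -0.46). In that comparison 9 of the 12 were higher and 2 lower (7 and 3 or 7 and 2 under the other scalings). Plk2, a polo-like kinase, rose by 1.47 in that step, from 15.1, 15.2 and 16.1 to 43.8, 43.7 and 45.9 FPKM.

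Of 9 other targets in cell death, 7 rose and none fell from saline to WT DOX, but 2 and 2 under either other scaling, and the list median was 0.29 beside 0.13 for all genes. Pmaip1, which encodes NOXA, rose by 1.09 (adjusted p = 3.19e-07) and Apaf1, the core of the apoptosome, by 0.80 (adjusted p = 1.56e-06), both under every scaling. Against WT DOX, 6 were higher and 2 lower in Sting-/- DOX hearts (4 and 3 under either other scaling). Trp53inp1, a p53 cofactor, and Tnfrsf10b, a death receptor of TRAIL, rose by 1.36 and 1.31. Perp, a membrane protein of desmosomes and p53 target, fell from 126, 129 and 126 to 25.64, 26 and 22.03 FPKM (-2.33, adjusted p = 7.36e-12). Pmaip1, like Bbc3 the gene of a BH3-only protein, did not pass in that step (0.07, adjusted p = 0.428; -0.11 under median-ratio scaling) and was called lower under quantile normalization (-0.27).

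Targets in metabolism and secretion were called in both directions, with list medians of -0.10 in WT DOX against saline and -0.99 in Sting-/- DOX against WT DOX. In WT DOX against saline 4 of 10 tested were higher and 5 lower, under every scaling. Gdf15, a stress cytokine, went from 0.77, 0.53 and 0.54 FPKM in saline to 17.2, 14.3 and 18.0 in WT DOX (3.43, adjusted p = 3.68e-11) and stood at 13.1, 15.4 and 14.3 in Sting-/- DOX hearts, overlapping WT DOX (-0.19, adjusted p = 0.082; -0.46 and -0.42 under the other scalings). Thbs1, a matrix protein that inhibits vessel growth, rose in both steps (2.92 and 2.54). The step from WT DOX to Sting-/- DOX had 3 higher and 6 lower (3 and 7 under the other scalings), with Lpin1, a phosphatidate phosphatase, falling by 2.18 and Ak1, an adenylate kinase, falling by 1.92. Lpin1 and Ak1 fell in the groups in which the cardiomyocyte markers fell, and the part of cell makeup was not tested.

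**Figure D5:**
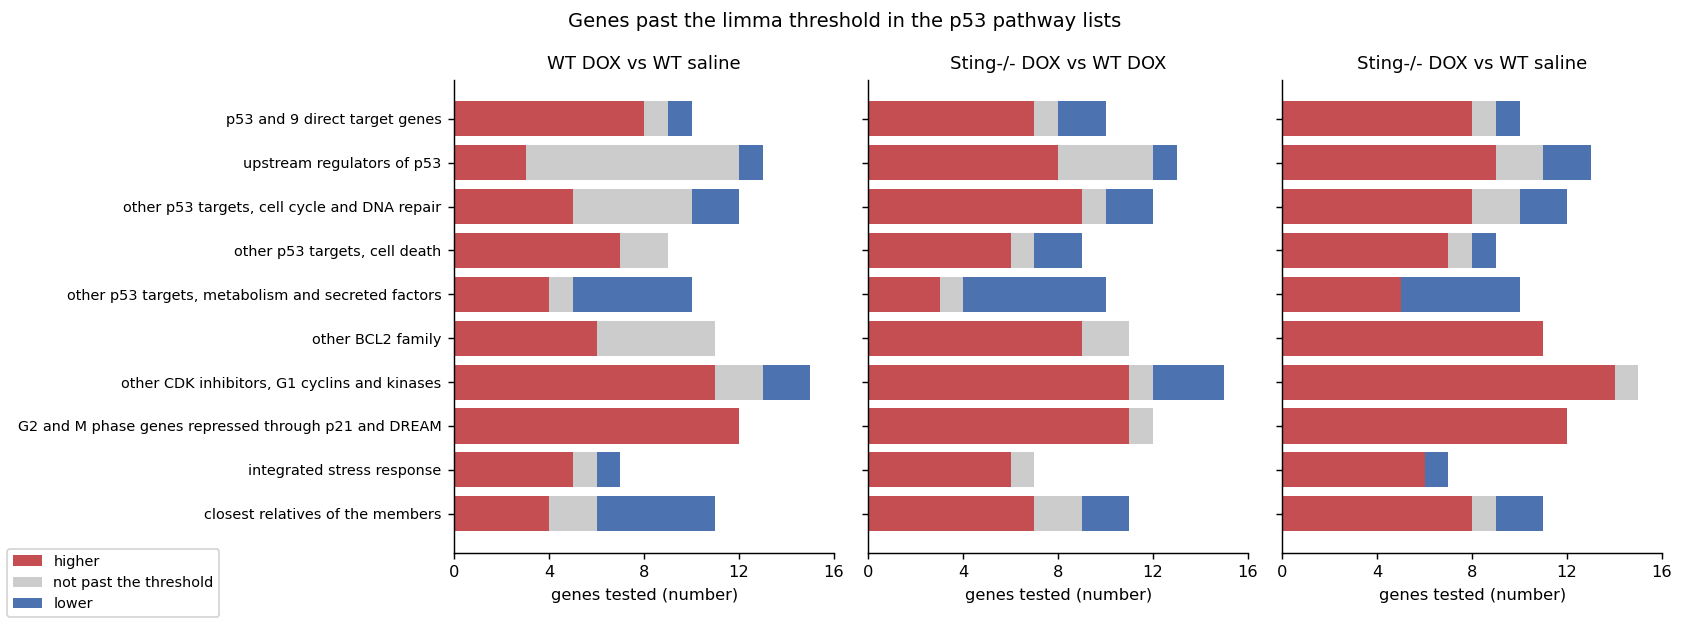
Number of tested genes called higher, not past the threshold, or called lower (adjusted limma p under 0.05) in each pathway list, for the 3 comparisons on the deposited values. The G2 and M phase list has 12 of 12 higher in WT DOX against saline, and the list of metabolism and secreted factors has 4 higher and 5 lower.

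As a description of what ran with these genes over all 9 libraries, the tested genes most like Trp53 on the log2(FPKM + 1) scale were Bin1, Coro1b and Ywhaz (Pearson's r = 0.9988, 0.9985 and 0.9981). Those most like Cdkn1a were Psmb8, Clic1 and Vcan (r = 0.9975, 0.9973 and 0.9971). The 9 libraries fall into 3 separate groups, and such values are common: 2563 of 12475 genes had r over 0.95 with Trp53 and 1284 with Cdkn1a. The 2 sets of nearest genes shared no name, and neither held a gene of the p53 pathway lists.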

How the data were processed

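RNA-seq of whole mouse heart was compared between WT saline, WT DOX and Sting-/- DOX, 3 libraries each, grouped by the sample titles. The authors deposited 1 file per library with an Entrez gene ID and an FPKM value. The submitters' processing notes name HISAT2 2.0.4, Bowtie2 2.2.5, RSEM 1.2.12 and the build GRCm39, with no role given, and strand handling is not given in the sources used here. FPKM keeps no counts, so no count model was used. Sums of FPKM ran from 539287 to 570128 per library. Depth was estimated from the steps between low values of 1323 genes. Of the values used, 51.8% to 64.9% fell within 0.1 reads of a whole number (20% if uniform), so it is approximate.

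Gene IDs were given symbols from RefSeq (16825 matched, 48 did not). log2(FPKM + 1) was fitted with limma 3.58.1 in R 4.3.3, trended variance prior, all 9 libraries in 1 fit, two-sided, over the 12485 genes whose mean reached 1 FPKM, calling an adjusted p (Benjamini-Hochberg) under 0.05. The script was tested on simulated data. Named genes are the 10 members, the 2 largest called rises and falls of each list in each comparison, their relatives and partners, and the 3 genes most like Trp53 and Cdkn1a. The members and lists were chosen with earlier results of these data known. The promoter search is a description added to the tests. Alternatives covered the pseudocount, the filter, the scaling, the groups in the fit, the variance prior, a replicate block and leaving out each library. Python 3.11.15 with numpy 2.4.6 was used for joins and figures.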

Additional observations from a re-analysis of the deposited data

How the results depend on the processing

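Of 501 values of single genes under the alternatives, 471 kept their direction and their side of the threshold, 18 no longer passed, 5 newly passed and 7 changed sign. Called values that changed sign, all under quantile normalization, were Bbc3 at -0.0144 and Zmat3 at -0.103 in WT DOX against saline, and Sesn2 at -0.0638 in Sting-/- DOX against saline. Values not called in either setting changed sign under median-ratio scaling and quantile normalization for Mdm2 in WT DOX against saline (-0.109 and -0.0458) and for Sesn2 in Sting-/- DOX against WT DOX (-0.0226 and -0.154). The count of the 10 genes called higher in WT DOX against saline was 8, and became 4 under median-ratio scaling, 4 under quantile normalization and 5 with a minimum mean of 5 FPKM, a filter that leaves 7 of the genes. Over all tested genes the higher calls in that comparison went from 5651 to 3582 under median-ratio scaling and 3461 under quantile normalization, and the lower calls from 2680 to 5087 and 5363. In Sting-/- DOX against saline the members called higher became 5 with the minimum of 5 FPKM, the members called lower became 2 under median-ratio scaling and 2 under quantile normalization, and the lower calls over all genes went from 3228 to 5274 and 5205. Leaving out single libraries gave 1 to 2 members lower in Sting-/- DOX against WT DOX, with 1 when WT DOX replicate 2 was left out. Apart from the filter, the cause was not tested. The replicate numbers did not pair the samples: deviations of same-numbered libraries correlated at -0.0323 to 0.104 over 9 pairs, and 0 libraries lay closest to their own number in both other groups. With the replicate block, 7 members were higher and 1 lower in WT DOX against saline, Zmat3 being the one that no longer passed (adjusted p = 0.065), and the block changed no other count of members, with 5607 genes higher and 2640 lower in that comparison. FPKM without read counts leaves counting error unknown, which limits Eda2r, Zmat3 and Sesn2, at 0.86 to 4.99 FPKM, most.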

Other observations

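The integrated stress response shares Sesn2 with the p53 pathway as a target of ATF4. Its list has 7 tested genes, of which 5 rose and 1 fell from saline to WT DOX (4 and 1 or 3 and 1 under the other scalings), where 45.3% of all tested genes were higher and 21.5% lower. The list median was 0.51 beside 0.13 for all genes. Asns, asparagine synthetase and an ATF4 target, went from 1.25, 2.44 and 1.84 FPKM in saline to 6.82, 7.27 and 7.19 in WT DOX and 9.45, 9.10 and 8.35 in Sting-/- DOX hearts. Its rise with doxorubicin in WT hearts was 1.53 (limma adjusted p = 4.06e-07) and held under every scaling, whereas the rise of Sesn2 in that comparison did not. Chac1, a glutathione-degrading enzyme and ATF4 target, went the other way, from 4.41, 4.72 and 4.30 to 3.6, 3.86 and 3.25 FPKM (-0.26, adjusted p = 0.0211). In Sting-/- DOX against WT DOX 6 of 7 were higher and none lower, but 2 and 1 or 4 and 1 under the other scalings, beside 54.1% and 29.7% of all tested genes. Trib3, a pseudokinase that restrains ATF4 output, rose by 1.0 (adjusted p = 2.78e-05) and Ddit4, which restrains mTORC1 and is induced by both p53 and ATF4, by 0.72 (adjusted p = 1.26e-05), both under every scaling. Of 11 tested relatives of the 10 genes, 4 rose and 5 fell from saline to WT DOX (3 and 6 or 3 and 7 under the other scalings). As deposited, 45.3% of all tested genes were higher and 21.5% lower there. Beside 54.1% and 29.7% of all tested genes, 7 of these relatives were higher and 2 lower in Sting-/- DOX than in WT DOX (6 and 3 under both). Among these, Zmat1, a relative of Zmat3, fell with doxorubicin in WT hearts (-0.45, adjusted p = 0.000786) and rose in Sting-/- DOX against WT DOX (0.68, adjusted p = 1.56e-05), under every scaling.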
